A study of Mus musculus with 12 samples.

Results

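Chemokine genes were examined in the cortex and the hippocampus of irradiated and sham-irradiated mice. The set holds the 10 genes *Ccl2*, *Ccl3*, *Ccl4*, *Ccl5*, *Ccl12*, *Ccl25*, *Cxcl12*, *Cxcl14*, *Cxcl16* and *Cx3cl1*, found by their symbols among the 23183 gene symbols of each library. The members were selected on their FPKM values in the irradiated (IR) and sham (Con) libraries, with *Ccl12* high in IR and *Ccl5* high in 1 Con library in view, so the differences of these 10 genes between IR and Con are given as values without a test. The animals were male C57BL/6 mice without an engineered allele named in the labels. They arrived at 7 weeks of age, were kept for 1 week, and then received either a single X-ray dose of 10 Gy to the whole brain or a sham procedure on the same platform. Tissue was taken 3 months after irradiation, and each region gave 3 Con and 3 IR libraries, 12 altogether. The sources do not say whether a library came from 1 mouse, or whether the cortex and hippocampus libraries of the same number came from the same mouse.

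Chemokines are small secreted proteins that steer the movement of leukocytes through G protein-coupled receptors, and some are also made by neurons, glia and vessels in the healthy brain. The CC ligands *Ccl2* and *Ccl12* act on *Ccr2* of monocytes, while *Ccl3* and *Ccl5* act on *Ccr1* of several leukocytes. *Cx3cl1* (fractalkine) is a membrane-bound ligand of neurons whose receptor *Cx3cr1* marks microglia in the brain, *Cxcl12* signals through *Cxcr4* and is scavenged by *Ackr3*, *Cxcl16* binds *Cxcr6*, and *Ccl25* binds *Ccr9*. *Cxcl14* is a chemokine of interneurons and epithelia with a less settled receptor.

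Values are FPKM, the fragments of a gene divided by its length and by the mapped fragments in its library. This is a per-length scale on which genes can be set beside each other. The paper's methods also name a geometric normalization, so the sums and the spacing of values may carry that scaling as well. FPKM summed to between 359773 and 393447 per library, and the spacing of the lowest values put the depth of the libraries at 0.973 to 1.09 times that of cortex Con 1, although the depth in reads is unknown. The regions could be told apart by their own genes: the sum over 4 hippocampal markers was 3.81 to 4.55 FPKM in cortex libraries and 32.9 to 54.4 FPKM in hippocampus libraries, and the sum over 4 cortical markers was 146 to 189.9 FPKM and 23.6 to 27.4 FPKM. Within the hippocampus the first sum was 32.9 to 42.7 FPKM in Con and 47.9 to 54.4 FPKM in IR, without overlap, and all 4 of its genes had a log2 difference above 0 (median 0.34), none of them called. The part of these markers in the hippocampus differences was not tested. The library hippocampus Con 1 stood apart in immune genes. It was the highest library for 14.1% of the 19670 genes above 0, more than any other library, and values that rest on it are given with and without it. Summed choroid plexus markers reached 438 FPKM in cortex IR 2, 1058 FPKM in hippocampus Con 2 and 1645 FPKM in hippocampus IR 1, and lay between 3.47 and 65.7 FPKM in the others.

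The levels of the 10 genes spanned more than 3 orders of magnitude. Over the 12 libraries the means were 210 FPKM for *Cx3cl1*, 54.5 FPKM for *Cxcl14*, 21.1 FPKM for *Cxcl12* and 2.84 FPKM for *Ccl25*, and no library of one of these genes overlapped with the next in this order. *Ccl5* followed with a mean of 1.70 FPKM that came almost wholly from 1 library, then *Ccl12* with 0.803 FPKM, *Cxcl16* with 0.449 FPKM, *Ccl3* with 0.404 FPKM, *Ccl4* with 0.356 FPKM and *Ccl2* with 0.121 FPKM. The libraries of these 6 genes overlapped with one another. *Cx3cl1* was higher than 98.9% of all genes by mean, and *Ccl2* higher than 31.2%. A gene was analysed in a region when 3 or more of its 6 libraries reached 0.5 FPKM. In each region 5 members met this, namely *Ccl12*, *Ccl25*, *Cxcl12*, *Cxcl14* and *Cx3cl1*, and 5 did not. *Ccl12* met it only through the 3 IR libraries of each region, so that it could not have been analysed without being high in IR.

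Of the 10 members, 6 had a promoter entry in RefSeq (GRCm38.p6, the NCBI release of the mm10 build that the labels name). The promoters of *Ccl12*, the member with the largest ratio of IR to Con, of *Cx3cl1*, the most abundant member, and of *Ccl3*, an inducible CC chemokine on the chromosome of *Ccl12* that stayed low in IR, are shown for comparison as the 250 bases before the annotated start, 5′ to 3′ on the strand of the gene. They lie at chr11:82101595-82101844 on the plus strand, chr8:94771930-94772179 on the plus strand and chr11:83649379-83649628 on the minus strand. Capitals mark the TATA box letters TATAAA.
Ccl12: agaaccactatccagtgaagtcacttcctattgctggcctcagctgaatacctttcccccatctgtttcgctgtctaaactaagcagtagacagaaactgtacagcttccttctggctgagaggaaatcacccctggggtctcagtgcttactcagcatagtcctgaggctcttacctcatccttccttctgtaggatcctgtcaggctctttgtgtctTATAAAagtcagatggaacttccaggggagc
Cx3cl1: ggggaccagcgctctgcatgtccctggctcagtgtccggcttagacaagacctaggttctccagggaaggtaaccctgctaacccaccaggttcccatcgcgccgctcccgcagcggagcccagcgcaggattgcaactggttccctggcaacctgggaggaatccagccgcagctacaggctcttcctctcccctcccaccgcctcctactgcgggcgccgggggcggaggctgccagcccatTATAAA
Ccl3: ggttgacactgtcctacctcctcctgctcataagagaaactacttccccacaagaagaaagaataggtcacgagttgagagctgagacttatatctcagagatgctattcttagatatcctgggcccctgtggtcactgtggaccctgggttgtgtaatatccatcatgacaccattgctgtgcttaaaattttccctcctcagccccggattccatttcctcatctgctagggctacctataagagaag
The letters TATAAA, searched on both strands, began 31 bases before the start of *Ccl12* and 6 bases before that of *Cx3cl1*, and were not found in the window of *Ccl3*. Of all 32851 promoter windows of the same length, 12.4% held them. The letters GGGNN followed by TTNCC, a form of the NF-kB motif, and TGANTCA, a form of the AP-1 motif, were in 4.1% and 6.7% of all windows. Neither was found in the 7 windows of the 6 matched members, which says only that these letters are absent from these 250 bases. A second *Ccl25* window held TATAAA, 16 bases before its start, and the windows of *Cxcl12* and *Cxcl14* held none of the 3 motifs.

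Of the 10 members, 5 are neighbours on chromosome 11 (GRCm38). *Ccl2* (82035577 to 82037452, plus strand) and *Ccl12* (82101845 to 82103399, plus strand) lie in a cluster with *Ccl7*, *Ccl11*, *Ccl8* and *Ccl1*. *Ccl5* (83525778 to 83530518, minus strand), *Ccl3* (83647843 to 83649378, minus strand) and *Ccl4* (83648624 to 83664683, plus strand) form a cluster further along with *Ccl9* and *Ccl6*. The longest stretch of identical transcript sequence was 21 bases between *Ccl12* and *Ccl11*, the closest to it of the chemokines compared, and 23 bases between *Ccl2* and *Ccl7*, against reads of 100 bases. Exons of *Ccl25* overlap those of *Elavl1* on the other strand by 181 bases, and those of *Cxcl16* overlap those of *Zmynd15* by 552 bases. By the RefSeq coordinates above *Ccl3* and *Ccl4* also overlap, on opposite strands, while no exon overlap of this pair was found in GENCODE. The library kit keeps the strand, but whether the counting used it is not given in the sources used here.

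*Ccl12*, a ligand of *Ccr2* also known as MCP-5, was low in every Con library and higher in every IR library of both regions. In the cortex it was listed at 0.345, 0 and 0.170 FPKM in Con and at 0.847, 1.49 and 1.83 FPKM in IR. In the hippocampus it was listed at 0, 0.197 and 0.329 FPKM in Con and at 0.768, 1.95 and 1.71 FPKM in IR. The lowest IR library was thus above the highest Con library in each region, and IR 1 was the lowest IR library in both. The means were 0.172 ± 0.173 FPKM and 1.39 ± 0.498 FPKM in the cortex, and 0.176 ± 0.166 FPKM and 1.48 ± 0.624 FPKM in the hippocampus (SD, n = 3). The cortex ratio of IR to Con was 8.09 and the hippocampus ratio 8.41. Leaving out 1 library at a time gave ratios from 5.39 to 16.3 in the cortex and from 5.61 to 15.0 in the hippocampus. The extremes were reached without a Con library. As the groups did not overlap, this could not turn the direction, but the size of the ratio depended on single libraries. On the log2(FPKM + 1) scale, where a pseudocount of 1 shrinks low values, the differences were 1.02 (SE 0.17) and 1.05 (SE 0.20), and with a pseudocount of 0.1 they were 2.64 and 2.66. The difference between the regional differences was 0.03 (SE 0.29).

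The *Ccl12* values came from few fragments. Each value was first divided by the step of the lowest values in its library relative to cortex Con 1 (0.914 to 1.03). Above 0, 9 of the 10 values so scaled lay within 0.15 of a whole multiple of 0.171 FPKM. This is what a single fragment would be worth for this gene on the scale of cortex Con 1. In these units the Con libraries held 2, 0 and 1 in the cortex and 0, 1.1 and 2 in the hippocampus. The IR libraries held 5, 9.1 and 11.1 in the cortex and 4.9, 12 and 10.5 in the hippocampus. A difference of 1 such unit between libraries is therefore no more than the spacing of the measurement.

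**Figure D1:**
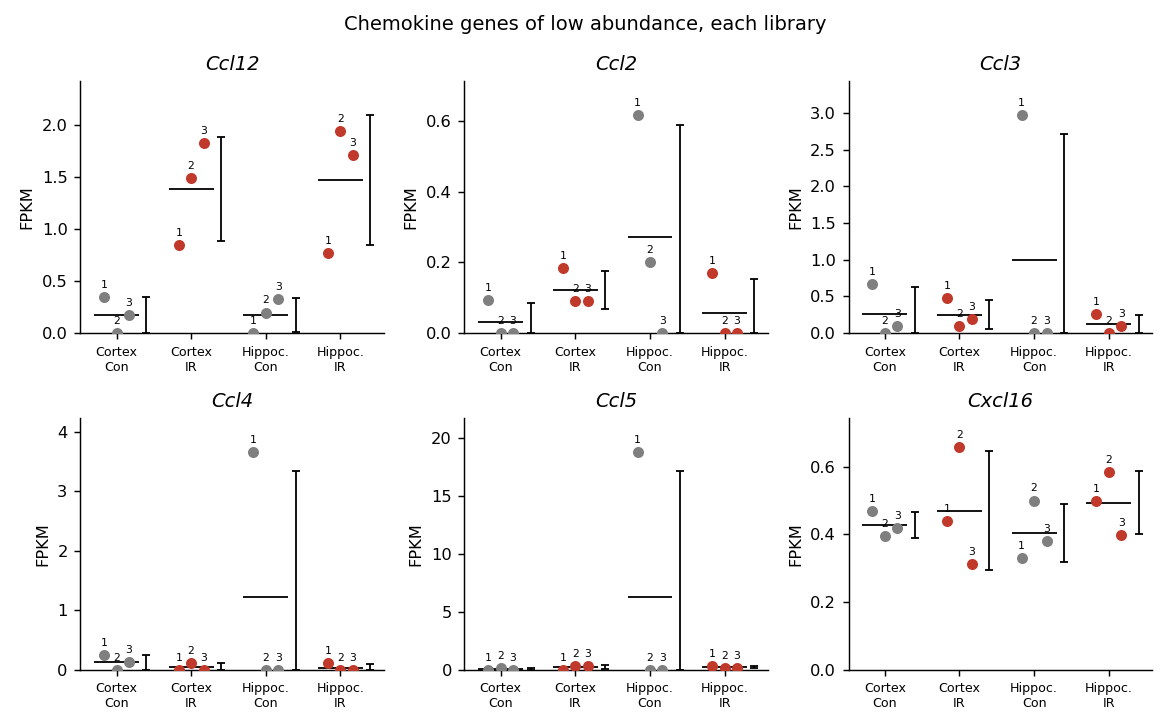
FPKM of the 6 chemokine genes of low abundance in each library, with the library number beside each point, the group mean as a line and its SD as a bar to the right (n = 3, bars end at 0). The 6 IR libraries of Ccl12 lie between 0.768 and 1.95 FPKM and all Con libraries at or below 0.345 FPKM, while Ccl3, Ccl4 and Ccl5 are high in hippocampus Con 1 alone.

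The other CC ligands of monocytes and T cells among the members did not separate IR from Con as *Ccl12* did. Outside hippocampus Con 1 their values were too low to show whether they followed it. *Ccl2*, whose product binds the same receptor, was listed at 0.0936, 0 and 0 FPKM in cortex Con and at 0.185, 0.0896 and 0.0904 FPKM in cortex IR. In the hippocampus *Ccl2* was 0.619, 0.200 and 0 FPKM in Con and 0.169, 0 and 0 FPKM in IR. One unit of its measurement is 0.0936 FPKM, so the cortex libraries differed by at most 2 units and overlapped. *Ccl3* (MIP-1 alpha) was 0.674, 0 and 0.0953 FPKM in cortex Con and 0.474, 0.0921 and 0.186 FPKM in cortex IR, with full overlap. *Ccl4* (MIP-1 beta) was 0.249, 0 and 0.123 FPKM in cortex Con and 0.119 FPKM or 0 in cortex IR. *Ccl5* (RANTES) was 0, 0.170 and 0 FPKM in cortex Con and 0, 0.337 and 0.337 FPKM in cortex IR. The ratio of group means in the cortex was 3.97 for *Ccl5* and 3.89 for *Ccl2*, but for both an IR library lay at or below a Con library and none exceeded 0.337 FPKM.

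In the hippocampus these genes were set by Con 1. *Ccl5* was 18.8 FPKM in Con 1, 0 in Con 2 and Con 3, and 0.312, 0.180 and 0.174 FPKM in IR. The Con 1 value was 55.9 times the highest of the other 11 libraries. *Ccl4* was 3.67 FPKM in Con 1, 0 in the other Con libraries, and 0.112, 0 and 0 FPKM in IR. *Ccl3* was 2.97 FPKM in Con 1, 0 in the other Con libraries, and 0.261, 0 and 0.0933 FPKM in IR. With all libraries the ratio of IR to Con was 0.0354 for *Ccl5*, 0.0304 for *Ccl4* and 0.119 for *Ccl3*. Without Con 1 the Con mean of each was listed at 0 and the IR mean was 0.222, 0.0373 and 0.118 FPKM. An IR mean cannot lie below 0, so without Con 1 no direction can be read for these genes. With all hippocampus libraries 5 of the 10 members had a higher mean in IR than in Con. When Con 1 was left out 9 had, *Ccl3*, *Ccl4* and *Ccl5* with their Con mean of 0 among them. Of the 14043 hippocampus genes analysed, 6636 had a log2 difference above 0 with all libraries, and the share without Con 1 is not given. *Ccl2* kept the lower mean in IR without Con 1, with a ratio of 0.563. For *Ccl12*, which was listed at 0 in Con 1, leaving it out gave a ratio of 5.61.

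Other immune genes were high in the same library. *Cxcl2*, a neutrophil attractant, was 3.00 FPKM in hippocampus Con 1 and at most 0.0629 FPKM elsewhere. *Xcl1*, a chemokine of T and NK cells, was 2.11 FPKM and was listed at 0 in the other 11 libraries. *S100a8*, an alarmin of neutrophils, was 382 FPKM against at most 0.917 FPKM, whereas its partner *S100a9* was 0.652 FPKM and *Retnlg*, *Ngp* and *Camp*, granule and effector genes of neutrophils, were at 0 there. The sum of 12 T cell markers was 2.92 FPKM against at most 0.726 FPKM, with *Gzma* at 0.910, *Nkg7* at 0.712 and *Cd3d* at 0.314 FPKM, and *Cd3e* at 0.0476 FPKM. *Alas2*, the heme synthesis gene of red blood cell precursors, was 22.5 FPKM there and at most 1.86 FPKM elsewhere, while *Hba-a1* was 9.83 FPKM and lowest there. These genes moved with the *Ccl5*, *Ccl4* and *Ccl3* values of 1 library, and their part in them was not tested. Whether this RNA came from the sampled tissue is not known, which limits what the Con means of *Ccl3*, *Ccl4* and *Ccl5* in the hippocampus stand for. Of the 10 members 5 were highest in this library, beside 14.1% of all genes above 0. A list of 8 neutrophil genes summed to 384 FPKM there against at most 2.45 FPKM, almost wholly from *S100a8*, and a list of 6 NK cell genes to 0.554 FPKM against at most 0.228 FPKM. Both lists were added after the values of this library were seen.

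**Figure D2:**
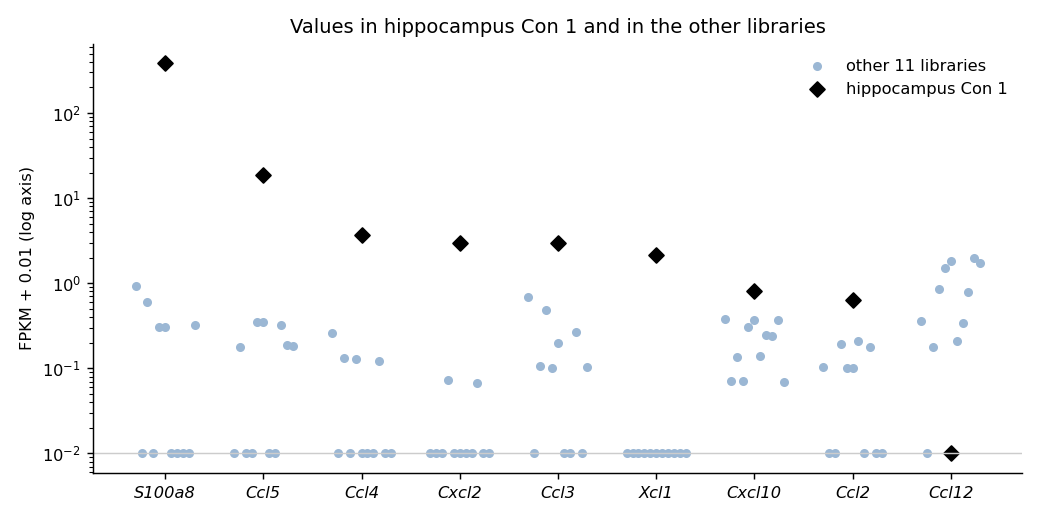
FPKM + 0.01 on a log axis for 9 genes in hippocampus Con 1 (diamonds) and in the other 11 libraries (circles, values at 0 on the grey line). Ccl5 is 18.8 FPKM and S100a8 382 FPKM in hippocampus Con 1, whereas Ccl12 is listed at 0 there and reaches 1.95 FPKM elsewhere.

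The abundant members were steadier between libraries. *Cx3cl1* was 221, 217 and 218 FPKM in cortex Con and 292, 272 and 269 FPKM in cortex IR. The IR libraries were all above the Con libraries there, with a ratio of 1.27 and a log2 difference of 0.34 (SE 0.05). In the hippocampus *Cx3cl1* was 149, 158 and 190.1 FPKM in Con and 172, 176 and 186 FPKM in IR. Those groups overlapped because Con 3 was the highest of the 6, with a ratio of 1.08 and a log2 difference of 0.11 (SE 0.10). The difference between the regional differences was -0.23 (SE 0.11).

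*Cxcl12*, which keeps progenitor cells and lymphocytes near vessels and meninges, showed smaller shifts. It was 19.4, 20.0 and 18.8 FPKM in cortex Con and 21.4, 21.4 and 20.0 FPKM in cortex IR, and IR 3 lay below Con 2. In the hippocampus it was 20.8, 21.3 and 20.0 FPKM in Con and 25.0, 22.1 and 23.0 FPKM in IR, where the groups did not overlap. The ratios were 1.08 and 1.13, with log2 differences of 0.10 (SE 0.06) and 0.17 (SE 0.07).

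*Cxcl14* did not separate the groups in either region. It was 64.5, 58.5 and 62.5 FPKM in cortex Con and 63.4, 60.4 and 67.5 FPKM in cortex IR, and 47.9, 45.4 and 44.9 FPKM in hippocampus Con and 42.8, 46.6 and 49.9 FPKM in hippocampus IR, with ratios of 1.03 and 1.01. *Ccl25*, known from the thymus and the small intestine, was 2.12, 3.42 and 2.02 FPKM in cortex Con and 2.48, 2.82 and 3.37 FPKM in cortex IR. In the hippocampus it was 3.90, 3.26 and 1.97 FPKM in Con and 2.39, 2.87 and 3.45 FPKM in IR. The spread within a group, up to 0.983 FPKM (SD), exceeded the difference between the group means of *Ccl25* in both regions. *Cxcl16*, a transmembrane chemokine, was between 0.311 and 0.659 FPKM in the 12 libraries, with ratios of 1.10 and 1.22 and overlap in both regions.

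**Figure D3:**
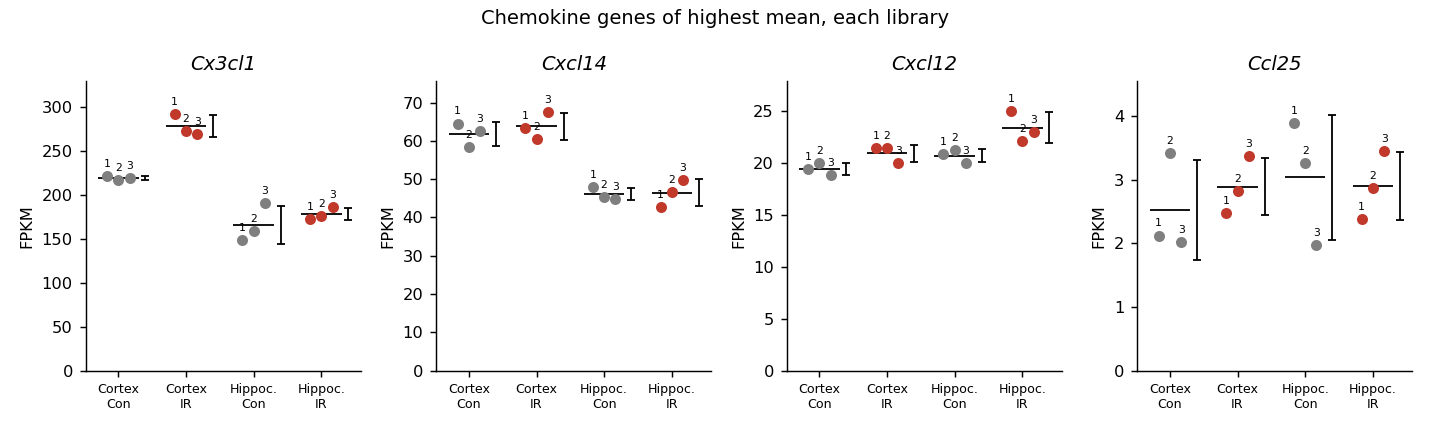
FPKM of the 4 members of highest mean in each library, with the library number beside each point, the group mean as a line and its SD as a bar to the right (n = 3). Cx3cl1 in cortex IR lies at 269 to 292 FPKM above 217 to 221 FPKM in cortex Con, and all hippocampus libraries of Cxcl14 and Cx3cl1 lie below their cortex libraries.

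Across the 10 members, all 3 IR libraries were above all 3 Con libraries for 2 in the cortex (*Ccl12* and *Cx3cl1*) and for 2 in the hippocampus (*Ccl12* and *Cxcl12*), and below them for none. Of all genes analysed, 11.2% lay wholly above and 9.09% wholly below in the cortex, and 10.5% and 9.36% did in the hippocampus. The IR mean was the higher for 8 of 10 members in the cortex and 5 of 10 in the hippocampus, genes under the filter included. Of all genes analysed, the log2 difference was above 0 for 7102 of 14065 in the cortex and 6636 of 14043 in the hippocampus.

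The receptors of these ligands were examined next, with a criterion of a model fold of at least 1.5 on the log2(FPKM + 1) scale and an unadjusted p under 0.05. The sizes follow those of the study, but the model fold is nearer to 1 for low genes than a ratio of group means, with which more genes are called. By limma the criterion called 0.391% of genes higher and 0.0924% lower in cortex IR, and 0.242% higher and 0.285% lower in hippocampus IR, and 0.725% of cortex genes and 0.0285% of hippocampus genes had an adjusted p under 0.05. Of 23 receptor genes, 17 were under 1 FPKM in every library and the filter left 5 for the cortex and 6 for the hippocampus. No receptor met the criterion or an adjusted p under 0.05 in either region. An unadjusted p under 0.05 was reached by 2 in the cortex and 3 in the hippocampus, *Cx3cr1* in both and *Ackr1* in the hippocampus among them, beside 14.1% and 13.9% of all genes tested.

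*Cx3cr1*, the microglial receptor of *Cx3cl1*, was 15.0, 14.4 and 13.4 FPKM in cortex Con and 10.5, 12.8 and 9.68 FPKM in cortex IR. In the hippocampus it was 15.4, 13.1 and 13.0 FPKM in Con and 8.93, 10.7 and 11.1 FPKM in IR. Every IR library was below every Con library in both regions, with log2 differences of -0.36 (SE 0.09, adjusted p = 0.135) and -0.41 (SE 0.10, adjusted p = 0.247, limma).

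*Ccr2*, the monocyte receptor of *Ccl12* and *Ccl2*, was at or below 0.131 FPKM in every library, and its highest value was in cortex Con 2. *Ccr1* was at or below 0.348 FPKM, *Ccr9* at or below 0.103 FPKM and *Cxcr6* at or below 0.157 FPKM, so no difference in them was detectable at this depth. *Ackr3*, which scavenges *Cxcl12*, had log2 differences of 0.13 (adjusted p = 0.692) in the cortex and 0.37 (adjusted p = 0.440) in the hippocampus. *Cxcr4* had 0.16 in the hippocampus (adjusted p = 0.602) and was under the filter in the cortex. *Ackr1*, a scavenging receptor of venules and red blood cells, was 21.7, 24.7 and 25.5 FPKM in hippocampus Con and 32.2, 30.7 and 28.2 FPKM in hippocampus IR (log2 difference 0.33, adjusted p = 0.247, limma). It shares 284 bases of exon with *Cadm3* on the same strand, a neuronal adhesion gene at 110 to 140.3 FPKM, and how the counting split reads of this pair is not known.

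Markers of microglia, the main source of *Cx3cr1* in the brain, stood lower in IR. The sum over 12 microglial genes, *Cx3cr1* among them, was 182 to 193 FPKM in cortex Con and 145 to 185 FPKM in cortex IR, with overlap. In the hippocampus the sum was 175 to 210.3 FPKM in Con and 141 to 156 FPKM in IR, without overlap. The log2 differences of these genes were below 0 for 11 of 12 in the cortex (median -0.19) and for 12 of 12 in the hippocampus (median -0.34). *Csf1r*, the receptor that microglia need to survive, fell in the hippocampus (log2 difference -0.84, adjusted p = 0.0126), and in the cortex it met the fold criterion with an adjusted p of 0.276, a call lost without any single library other than cortex IR 2. *Trem2*, a lipid receptor of microglia, fell in the cortex below the fold criterion (log2 difference -0.38, adjusted p = 0.0396, limma). *Csf1r* shares up to 873 bases of exon with *Hmgxb3* on the other strand. Cortex IR 2, with 18.0 FPKM of *Csf1r* against 8.84 and 8.89 FPKM in IR 1 and IR 3, had the middle *Ccl12* value of its group, 1.49 FPKM. In tissue RNA, fewer cells of a type and less RNA per cell cannot be told apart. The part of the microglial genes in the *Ccl12* and *Cx3cr1* values was not tested.

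The sum over 8 genes of border macrophages and monocytes was 2.57 to 3.14 FPKM in cortex Con and 1.34 to 2.62 FPKM in cortex IR, with overlap. In the hippocampus it was 0.973 to 2.34 FPKM in Con and 1.94 to 4.13 FPKM in IR, with overlap. Its median was the lower in cortex IR and the higher in hippocampus IR. The filter left *Mrc1* and *Pf4*. *Mrc1*, the mannose receptor of such macrophages, was 1.03, 0.811 and 0.970 FPKM in cortex Con and 0.663, 0.720 and 0.598 FPKM in cortex IR, lower without overlap (log2 difference -0.22, unadjusted p = 0.0442, adjusted p = 0.337, limma). In the hippocampus *Mrc1* was 0.309, 0.173 and 0.603 FPKM in Con and 1.38, 1.01 and 0.695 FPKM in IR, higher without overlap (log2 difference 0.57, unadjusted p = 0.00835, adjusted p = 0.262, limma). Its ratio of group means there was 2.84, while its model fold was just under 1.5. *Cd163*, a scavenger receptor of these cells and under the filter, had lower means in IR in both regions, 0.232 against 0.132 FPKM and 0.235 against 0.140 FPKM, whereas the mean of *Ms4a7*, also under the filter, was 0.145 FPKM in hippocampus Con and 0.384 FPKM in hippocampus IR, with overlap. The part of these cells in the *Ccl12* values was not tested. The sum over 7 endothelial genes, cells that also make *Cxcl12*, was 58.5 to 67.9 FPKM in cortex Con and 68.0 to 80.6 FPKM in cortex IR. In the hippocampus the endothelial sum was 53.1 to 59.0 FPKM in Con and 63.7 to 66.7 FPKM in IR. The log2 difference was above 0 for 5 of the 7 genes and below 0 for *Slco1a4* and *Tek* in both regions, and none was called. *Cldn5*, a tight junction gene, was higher in every IR library of its region, with 25.7 ± 4.20 and 35.6 ± 3.25 FPKM in cortex Con and IR and 21.2 ± 2.55 and 29.3 ± 1.79 FPKM in hippocampus Con and IR (SD, n = 3). The sum over 6 genes of meningeal fibroblasts was 29.2 to 43.9 FPKM in cortex Con and 23.4 to 38.4 FPKM in cortex IR, and 28.1 to 44.2 FPKM in hippocampus Con and 35.9 to 59.5 FPKM in hippocampus IR, with overlap in each region. Their log2 differences were at or below 0 for 6 of 6 in the cortex (median -0.19, none called) and above 0 for 6 of 6 in the hippocampus (median 0.25), where 1 met the criterion. That gene, *Slc6a13*, a GABA transporter, was 1.66 ± 0.784 FPKM in hippocampus Con and 3.12 ± 0.281 FPKM in hippocampus IR (SD, n = 3) without overlap (log2 difference 0.67, adjusted p = 0.259, limma), and without hippocampus Con 2 the difference was 0.51 and no longer met the criterion. The part of endothelial and meningeal genes in the *Cxcl12* values was not tested.

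Of the 31 other chemokines, 24 were under 1 FPKM in every library and 6 of these were listed at 0 throughout. The tests covered 6 in the cortex, where none met the criterion or an adjusted p under 0.05 and none had an unadjusted p under 0.05 by limma, and 7 in the hippocampus, where 1 met the criterion. *Ccl17*, a ligand of T helper cells and dendritic cells, was 1.79, 0.857 and 0.883 FPKM in hippocampus Con and 0.165, 0.191 and 0.553 FPKM in hippocampus IR. It was lower in all 3 IR libraries (log2 difference -0.73, unadjusted p = 0.00489, adjusted p = 0.247), and without hippocampus Con 1, its highest library, the difference was -0.53 and no longer met the criterion. In the cortex *Ccl17* had a log2 difference of -0.12 (adjusted p = 0.796, limma). The genes beside *Ccl12* in its cluster were under the filter in both regions. *Ccl8*, a monocyte attractant that lies next to it, was 0.187, 0 and 0 FPKM in cortex Con and 0.367, 0.359 and 0.180 FPKM in cortex IR. In the hippocampus *Ccl8* was 0, 0.217 and 0.178 FPKM in Con and 0.665, 0 and 0.186 FPKM in IR. Its mean was thus the higher in IR in both regions, with overlapping libraries. *Ccl11*, on the other side, was at or below 0.269 FPKM and *Ccl7*, beyond it, at or below 0.188 FPKM. *Ccl27a*, a skin chemokine at 86.0 to 109 FPKM in cortex libraries and 29.6 to 33.3 FPKM in hippocampus libraries, was the most abundant of these genes and had log2 differences of 0.09 and -0.04. *Pf4*, a platelet and macrophage chemokine, had -0.42 for the cortex and 0.65 for the hippocampus (adjusted p = 0.428 and 0.377, limma).

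**Figure D4:**
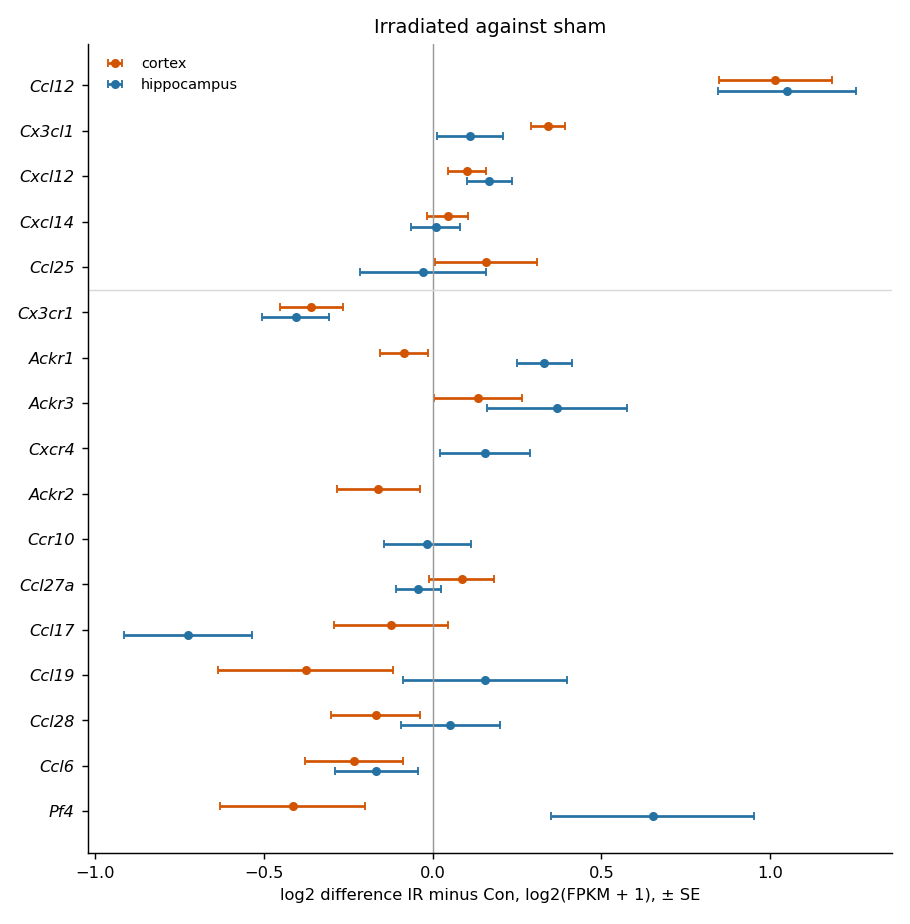
Log2 differences of IR minus Con, on log2(FPKM + 1), with the standard error as bars, for the 5 chemokines analysed (above the grey line, shown without a test) and for receptors and other chemokines (below it). Ccl12 stands at 1.02 and 1.05 in both regions, Cx3cr1 lies left of 0 in both, and a gene under the filter in a region has no point there.

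Genes upstream of inducible chemokines and their products were also examined. All 10 genes of an NF-kB list were tested in each region and none met the criterion or an adjusted p under 0.05 for IR against Con. The log2 difference was above 0 for 9 of the 10 in cortex libraries (median 0.14) and for 6 of the 10 in hippocampus libraries (median 0.03). *Tnfaip3*, an inhibitor of the pathway, was 1.12 ± 0.149 FPKM in cortex Con and 1.61 ± 0.204 FPKM in cortex IR (SD, n = 3) without overlap (log2 difference 0.30, adjusted p = 0.229), and in the hippocampus the difference was 0.24 (adjusted p = 0.466, limma). *Nfkb2*, which encodes a partner of RelB, was 0.436, 0.558 and 0.705 FPKM in hippocampus Con and 0.880, 1.14 and 0.874 FPKM in hippocampus IR, without overlap. Its log2 difference was 0.33 (unadjusted p = 0.0203, adjusted p = 0.305, limma), short of a model fold of 1.5, although its ratio of group means was 1.705, which is past that fold. In the cortex the difference was 0.05. *Relb*, a subunit of the noncanonical pathway, was 2.08 to 2.22 FPKM in cortex Con and 2.76 to 2.95 FPKM in cortex IR (log2 difference 0.29, adjusted p = 0.177), and in the hippocampus the difference was -0.07 (adjusted p = 0.784, limma). Of 10 inflammatory cytokines 3 were tested in each region and none was called. In the hippocampus *Il33* was lower in IR without overlap (log2 difference -0.42, unadjusted p = 0.00684, adjusted p = 0.259, limma). So was *Tgfb1* (-0.34, unadjusted p = 0.0160, adjusted p = 0.295, limma), while *Il18* had 0.15 there with overlap. In the cortex the differences of *Il33*, *Tgfb1* and *Il18* were -0.14, -0.11 and -0.02, with overlap. *Tnf* was at or below 0.208 FPKM and *Il1b* at or below 0.472 FPKM, both highest in hippocampus Con 1. Of 5 proteases that trim or shed chemokines, 5 were tested in cortex libraries and 4 in hippocampus libraries, and none was called for IR against Con.

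A second question was whether the members differ between the regions, which the choice of the set did not use. An adjusted p under 0.05 was reached by 19% of genes higher and 17.3% lower in the hippocampus among Con libraries, and by 23.7% and 23% among IR libraries. *Cx3cl1* and *Cxcl14* were lower in the hippocampus, in Con and in IR. For *Cx3cl1* the log2 difference was -0.41 (SE 0.10, adjusted p = 0.0107) in Con and -0.64 (SE 0.05, adjusted p = 9.75e-06) in IR. For *Cxcl14* it was -0.42 (SE 0.07, adjusted p = 0.00196) in Con and -0.45 (SE 0.07, adjusted p = 0.000443, limma) in IR. All 6 hippocampus libraries were below all 6 cortex libraries for both genes. So 2 of 4 members tested were called in Con and 2 of 5 in IR, and none was higher in the hippocampus. *Cxcl12* had 0.09 (adjusted p = 0.360) in Con and 0.15 (adjusted p = 0.0603) in IR, where the libraries did not overlap. *Ccl25* had 0.19 (adjusted p = 0.510) and 0.00 (adjusted p = 0.989, limma). *Ccl12* in IR had 0.04 (SE 0.21, adjusted p = 0.893, limma), where its IR values had been in view when the set was chosen. The value columns are named differently in the cortex and hippocampus libraries, so a regional difference cannot be told apart from one between processing runs.

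Of the receptors, those of *Cxcl12* were higher in the hippocampus although the ligand itself was not called. *Cxcr4* was 0.201 to 0.791 FPKM in the 6 cortex libraries and 1.80 to 3.02 FPKM in the 6 hippocampus libraries, with log2 differences of 1.11 (adjusted p = 0.000501) in Con and 1.29 (adjusted p = 6.21e-05) in IR. *Ackr3* was 2.81 to 4.20 FPKM in the cortex and 3.91 to 8.60 FPKM in the hippocampus. Its log2 differences were 0.73 (adjusted p = 0.0256) in Con, a call lost without cortex Con 1, cortex Con 2 or hippocampus Con 2 (0.66 to 0.71), and 0.97 (adjusted p = 0.000213, limma) in IR. *Dpp4*, a protease that inactivates *Cxcl12*, was lower in the hippocampus, 0.179 to 0.272 FPKM against 1.13 to 1.45 FPKM, with log2 differences of -0.87 (adjusted p = 0.000142) and -0.94 (adjusted p = 3.44e-05, limma). *Dpp4* met the filter only through its cortex libraries, so that it could not have been tested without being high there. *Ackr2*, which scavenges inflammatory CC chemokines, was lower as well, with -0.81 (adjusted p = 0.00135) and -0.77 (adjusted p = 0.000554, limma). In IR it met the filter only through its cortex libraries, with the same limit. *Ackr1* was lower in Con (-0.38, adjusted p = 0.00973) and had 0.04 in IR (adjusted p = 0.672, limma), with the limit on its reads given above. *Cx3cr1* did not follow its ligand, with -0.04 (adjusted p = 0.732) and -0.09 (adjusted p = 0.519).

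Of the other chemokines, *Ccl27a* was lower in the hippocampus, with log2 differences of -1.51 (adjusted p = 3.83e-06) in Con and -1.63 (adjusted p = 3.08e-07) in IR. *Ccl17* was lower too, with -0.73 (adjusted p = 0.00722) and -1.33 (adjusted p = 0.000493). *Ccl19*, a ligand of *Ccr7*, was lower in Con (-0.66, adjusted p = 0.0191), a call lost without cortex Con 1, cortex Con 3 or hippocampus Con 1 (-0.54 to -0.57), and had -0.12 in IR (adjusted p = 0.771). *Ccl28*, a mucosal chemokine, was higher in IR (0.33, adjusted p = 0.0496, limma) with overlapping libraries, a call lost with no filter, with a pseudocount of 0.1, with quantile normalization and without cortex IR 2, cortex IR 3, hippocampus IR 1 or hippocampus IR 3 (0.26 to 0.32). In the NF-kB list, 3 genes were higher and 1 lower in the hippocampus in Con, and 1 higher and 3 lower in IR. *Nfkbiz* was higher and *Nfkbib* lower in both.

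**Figure D5:**
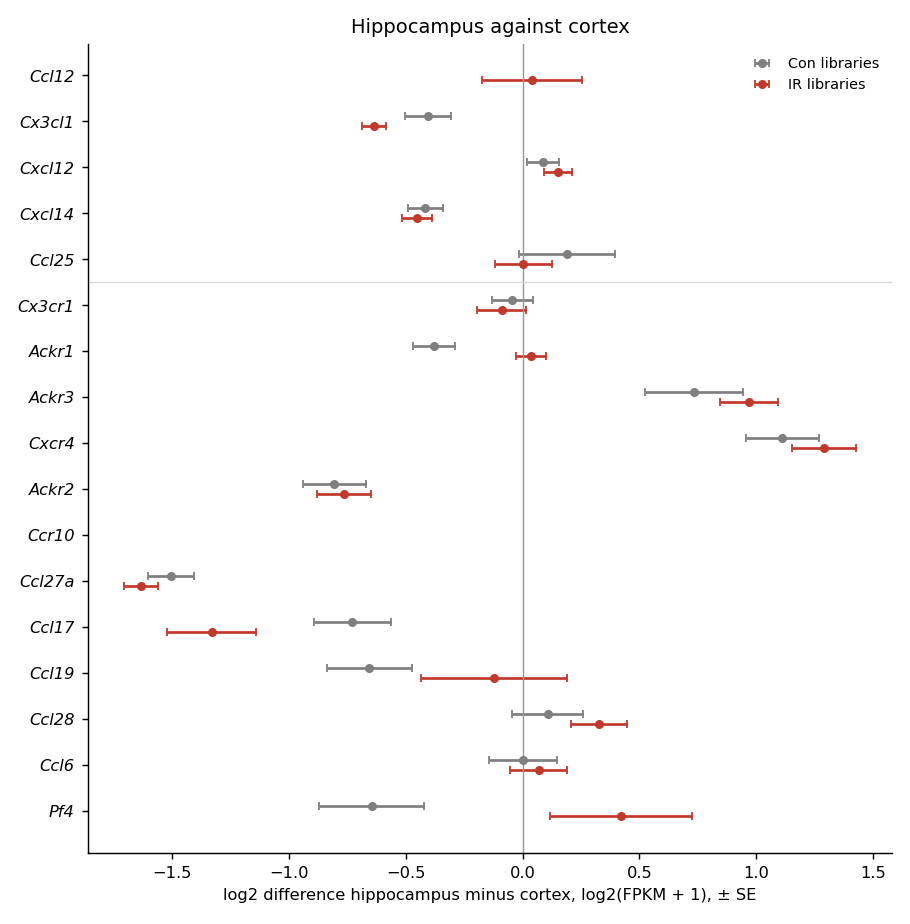
Log2 differences of hippocampus minus cortex, on log2(FPKM + 1), with the standard error as bars, in Con and in IR libraries. Cx3cl1 and Cxcl14 lie left of 0 at -0.41 to -0.64, Cxcr4 and Ackr3 right of 0, and a gene under the filter has no point.

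Whether the IR effect differed between the regions was tested for the genes outside the set with an interaction term over all 12 libraries, which had an adjusted p under 0.05 for 0.0823% of genes. None of the 7 other chemokines and 7 receptors tested was among them by limma, and 1 in each list was under 0.05 before adjustment. These were *Pf4* (interaction 1.07, adjusted p = 0.435) and *Ackr1* (interaction 0.41, adjusted p = 0.260, limma).

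Among the 15169 genes that reached 0.5 FPKM in some library, those whose log2(FPKM + 1) followed *Ccl12* most closely over the 12 libraries were *Zfp335* (Pearson r = 0.888), *Ftx* (0.872), *Fastkd5* (0.872), *Ppp6r1* (0.872) and *Rrp1b* (0.870). *Zfp335*, a zinc finger gene, was 9.01 to 9.87 FPKM in the 6 Con libraries and 10.3 to 11.5 FPKM in the 6 IR libraries. For all of them but *Fastkd5*, whose cortex IR 1 lay below cortex Con 2, every IR library was above every Con library, a split shared with *Ccl12*, and the order is a description without a p. The same ranking for *Ccl5* gave *Xcl1*, *Apoc2* and *Ctrcos* (each 0.990), *Cxcl2* (0.988) and *Cd69* (0.987), which rests on hippocampus Con 1 alone, as the first 3 were listed at 0 in the other 11 libraries.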

How the data were processed

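RNA sequencing of 12 mouse libraries, 3 Con and 3 IR per region, was used as deposited. The authors made the FPKM values with TopHat on mm10, Cufflinks and a geometric normalization in edgeR, after trimming, and the annotation is not given in the sources used here. The labels name Trizol and total RNA, the methods an RNeasy kit and poly(A) selection. No counts were used, so depth in reads is unknown and no counting interval is given. Each library was grouped by its label alone, no pair held identical values, and p values measure only the spread between libraries, which may be technical.

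The 10 chemokines and the gene lists were chosen with earlier results of these data known. Genes reaching 0.5 FPKM in 3 or more libraries were fitted as log2(FPKM + 1) with limma 3.58.1 in R 4.3.3 (trend, robust prior, Benjamini-Hochberg over all genes tested). IR against Con was called at a model fold of 1.5 with an unadjusted p under 0.05, and region and interaction at an adjusted p under 0.05. An exact permutation test of 3 against 3 cannot go below 0.1. The steps were tested on simulated data. Named are the 10 members, list genes called or of highest mean, the members' receptors, markers beside a result, and the 5 genes most like *Ccl12* and *Ccl5*. Called marker genes outside chemokine signalling are mostly not described. The values of 1 of the receptor genes are not reported here. Positions and promoters are RefSeq GRCm38.p6, and exon overlaps GENCODE M21. Figures used matplotlib 3.10.9 in Python 3.11.15.

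The alternatives were quantile normalization, no filter, a stricter filter (1 FPKM in every library), a pseudocount of 0.1, limma without trend or robust prior, a fold from group means, an adjusted p alone, the library number as a block, and leaving out each library. Lists for neutrophils and NK cells and the count of members without hippocampus Con 1 were added after seeing the data.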

Additional observations from a re-analysis of the deposited data

How the results depend on the processing

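No called result changed direction under the alternatives run. The cortex count of 68 genes became 234 (141 higher, 93 lower) with a pseudocount of 0.1 and 263 (150 and 113) with the ratio of group means, and ranged from 66 to 87 without single libraries. The hippocampus count of 74 (34 and 40) became 223 (130 and 93), 243 (137 and 106) and, by adjusted p alone, 4, and ranged from 52 to 217 without single libraries, the highest without Con 3. Among other chemokines the hippocampus call of 1 became 0 with 1 FPKM required in every library and by adjusted p alone, and 0 to 2 without single libraries, where the cortex gave 0 to 1. The receptor count became 1 in the hippocampus with the ratio of group means. Between the regions, requiring 1 FPKM in every library, which drops low genes, left 1 other chemokine and 2 receptors in Con and 1 of each in IR, and no filter gave 5 other chemokines in IR. The interaction count of 12 became 7 with no filter, 19 with the stricter filter and 0 without trend or robust prior, and ranged from 0 to 480 without single libraries, the highest without hippocampus Con 3, and the cause was not tested.

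A replicate block on the library numbers gave counts of 73 for the cortex and 80 for the hippocampus, an interaction count of 0, and moved no other count of calls by over 1.5 times. Same-numbered libraries did not deviate together in all pairs (r from -0.39 to 0.20 across genes, which are not independent). The lowest r was between Con and IR, which are different mice. Between the regions r was -0.08 to 0.20, and only number 3 correlated best with its own number, in Con and in IR. With 3 libraries per group this cannot say whether same-numbered libraries share a mouse.

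The ratio of IR to Con crossed 1 without some single library for *Ccl3* and *Cxcl16* in the cortex and for *Ccl25* and *Cxcl14* in the hippocampus. For *Ccl3*, *Ccl4* and *Ccl5* in the hippocampus it was undefined without Con 1, their Con mean then being 0. Without a single IR library *Ccl12* no longer met the filter, so its model differences left out Con libraries only, from 0.91 to 1.12 and from 0.94 to 1.14. Outside hippocampus Con 1, the *Ccl2*, *Ccl3*, *Ccl4* and *Ccl5* values were at most 7 times the smallest step between values of the gene, which limits what could be detected in them.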
